A study of Mus musculus with 14 samples.

Results

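The early response of thymic natural killer T (NKT) cells to dexamethasone, a synthetic glucocorticoid, was read in 5 libraries of cells sorted 18 h after the injection and set against 5 libraries from mice that received vehicle. These are 10 of the 14 libraries of the series and were taken by their group labels. The other 4 libraries, from cells taken 3 d after dexamethasone, served only the shared estimate of the spread between replicates. The 18 h group came from young male wild-type mice given dexamethasone into the peritoneum at 200 ug per 10 g body weight. The vehicle group came from wild-type males of the same age given 8% EtOH, and its cells were taken at 3 d. There was thus no vehicle group at 18 h, and effects of the drug cannot be told apart from effects of the time since injection. The sources used here give neither the gate of the sort nor whether a library is 1 mouse or a pool, so p-values measure only the spread between these libraries, which may be technical. Polyadenylated RNA was read by bulk MARS-seq, which counts the 3′ ends of transcripts.

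NKT cells are T cells with an almost invariant receptor for lipids bound to CD1d, and they mature in the thymus under the transcription factor PLZF, the product of Zbtb16. They release cytokines and chemokines within hours of stimulation. Dexamethasone binds the glucocorticoid receptor, which then moves to the nucleus, where it raises some genes and lowers others, many of them inflammatory, and kills many of the developing CD4+CD8+ thymocytes around the NKT cells. The best-known targets of the receptor and of interferon are not described for themselves here: 18 of 22 such glucocorticoid-induced genes and 50 of 50 such interferon-stimulated genes were higher at 18 h, against 17% of all genes tested. They were not removed from the family counts below. The glucocorticoid list shares 2 of 10 tested KLF factors, 2 mRNA decay genes and 2 Zfp genes. The same list shares 1 gene each with the clock, p53, FOXO and quiescence, MAPK phosphatase, BCL2 and chemokine receptor lists. It shares 2 with the NKT markers. JAK and STAT genes share 1 of 21 with it and 2 with the interferon list, which also shares 2 of 22 TRIM genes. Per1, Klf9, Cxcr4, Bmf and Zbtb16 of these lists come up below only as members of other families.

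The table lists 10320 names, of which 7965 genes passed the filter on low counts. Total counts per library were 1073583 to 2203273 at 18 h and 977037 to 2078540 in vehicle, so that 1 count was worth 0.471 to 1.11 CPM, counts scaled to a common library total, the unit of all levels below. Libraries were not alike within groups. Cd8b1 encodes a chain of the coreceptor CD8 that CD4+CD8+ thymocytes and conventional T cells carry. Its level was 10.9, 1008, 648, 9.43 and 27.5 CPM in the 18 h replicates 1 to 5, against 31.5, 44.5, 26.9, 71.2 and 60.1 CPM in the vehicle replicates 1 to 5. The 18 h replicates 2 and 3 thus stood far above the other 8 libraries. Vehicle replicate 3 was the vehicle library closest to the 18 h mean for 1548 of the 2734 genes called changed (56.6%), whereas each of the other vehicle libraries was closest for 8.81% to 13.3%. All libraries were kept, and larger moves of a count, a median or a fold change without some of them are given beside the result.

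**Figure D1:**
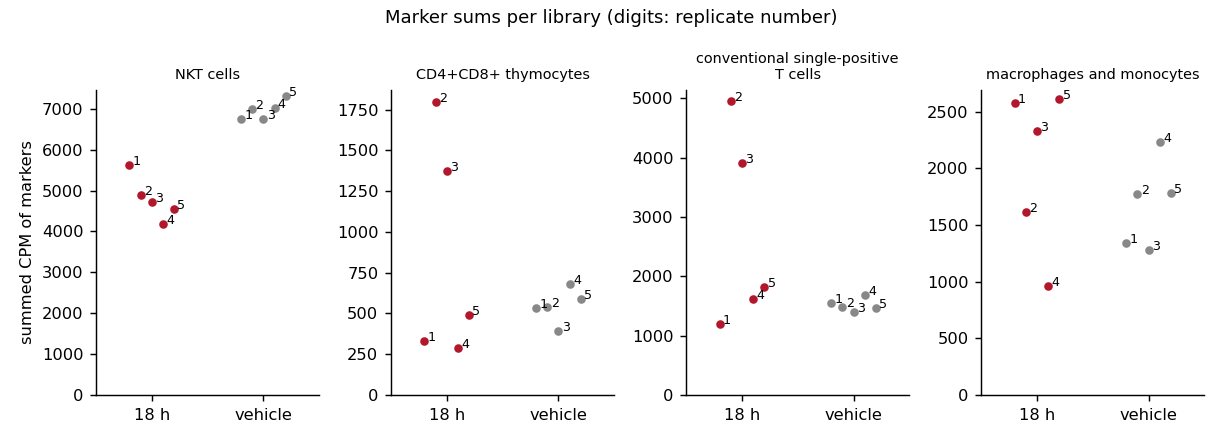
Summed CPM of the markers of 4 cell types in each library, with 18 h libraries in red, vehicle libraries in grey and the replicate number beside each point. NKT marker sums of the 18 h libraries lie below all vehicle sums, and the 18 h replicates 2 and 3 stand apart for both conventional T cell lists, which include Cd8b1.

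Markers of the sorted cells were present in every library. The plot of marker sums shows that the 17 NKT markers that could be read summed to 4193 to 5625 CPM at 18 h, against 6758 to 7316 CPM in vehicle, and that these ranges did not overlap. Of these 17 markers, 7 were called lower, 3 higher and 7 not called, with a median log2 fold change of -0.46. The receptor segments Trav11, Trav11d, Trbv13-2 and Trac are not analysed here. Zbtb16 stood at 50.2, 18.8, 35.3, 77.3 and 65.2 CPM at 18 h, against 80.7, 76.7, 41.7, 81.7 and 64.8 CPM in vehicle, and did not pass the test (log2 fold change -0.46 ± 0.28, adjusted p = 0.22). Cd3e, a chain of the T cell receptor complex, fell to 257 to 342 CPM at 18 h, against 395 to 769 CPM in vehicle (-1.13 ± 0.18, adjusted p = 5.7e-05). In bulk samples, fewer cells of a type and less RNA per cell cannot be told apart. Here and below, ± after a log2 fold change of 18 h over vehicle is its standard error, and adjusted p-values come from edgeR's two-sided quasi-likelihood test with Benjamini-Hochberg adjustment over the 7965 genes.

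Markers of other cells moved with the groups to differing degrees. CD4+CD8+ thymocyte markers, 17 of 20 of them read, reached 1798 and 1373 CPM as a sum in replicates 2 and 3 of the 18 h group and 289.5 to 487.6 CPM in the other 18 h libraries, against 390.5 to 678.4 CPM in vehicle. The 17 markers of conventional single-positive T cells summed to 4961 and 3918 CPM in the same replicates 2 and 3 and to 1198 to 1823 CPM in the rest of the group, against 1397 to 1688 CPM in vehicle. Both lists hold Cd8a and Cd8b1, and replicates 2 and 3 were singled out by Cd8b1. Their high sums are thus not evidence separate from Cd8b1. Rag2 is not analysed here, and Rag1 was below the filter. Macrophage markers, 17 of 19 of them read, summed to 2577, 1611, 2328, 958 and 2613 CPM in the 18 h replicates 1 to 5, against 1278 to 2233 CPM in vehicle, with replicate 4 the lowest of all. The 8 markers of NK cells and innate lymphoid cells that could be read summed to 73.5 to 382 CPM at 18 h, against 424 to 614 CPM in vehicle, and the ranges did not overlap. Of the 6 tested, 2 were called lower (5 without 18 h replicate 1) and 4 were not called. The 2 were Klra9 and Fcer1g, and Fcer1g is also on the macrophage list. Fcer1g averaged 98.7 CPM at 18 h and 289 CPM in vehicle, and Klra9 averaged 8.25 CPM and 89.3 CPM.

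Genes were called changed at an adjusted p below 0.05. At 18 h, 2734 of 7965 genes (34.3%) were called, 1353 higher (17%) and 1381 lower (17.3%). Every 18 h library stood above every vehicle library for 753 genes (9.45%) and below every one for 822 genes (10.3%). The median log2 fold change over all tested genes was 0.01. Of the called genes, 734 were at least 2-fold higher and 472 at least 2-fold lower, whereas 170 were at least 4-fold higher and 79 at least 4-fold lower, so the largest changes were more often rises. The shares of 17% and 17.3% are the background against which the counts of gene groups below are to be read. Counts of 4 or fewer members in the text moved by up to 2 without single libraries or the 18 h replicates 2 and 3. Exceptions were macrophage markers, NK cell markers and proteasome genes, whose counts moved by up to 3. Some lists not given in the text moved more.

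**Figure D2:**
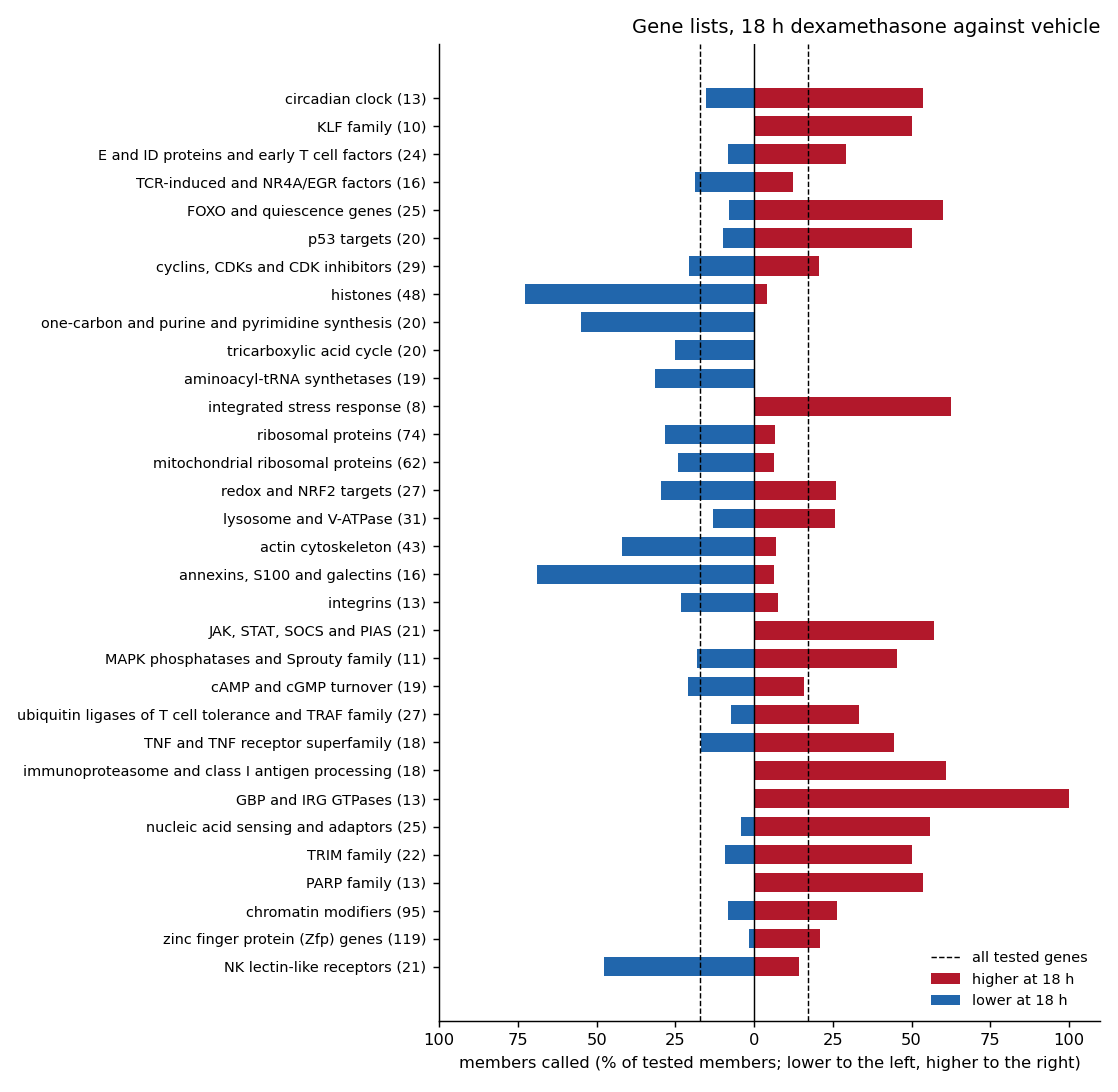
Share of the tested members of 32 gene lists called higher at 18 h (red, to the right) or lower (blue, to the left), with the number tested in parentheses and dashed lines at the shares over all tested genes. GBP and IRG GTPases (13 of 13 higher) and histones (35 of 48 lower) reach farthest from the dashed lines.

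The bar plot of gene lists sets these shares side by side for 32 lists. Histones, annexins with S100 proteins, one-carbon and nucleotide synthesis, NK lectin-like receptors and the actin cytoskeleton held mostly falls among their called members. Clock genes, KLF factors, FOXO and quiescence genes, p53 targets, JAK and STAT signalling, class I antigen processing, nucleic acid sensing, TRIM and PARP proteins held mostly rises. Redox genes and the cyclins with their kinases had called members in both directions in similar numbers.

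**Figure D3:**
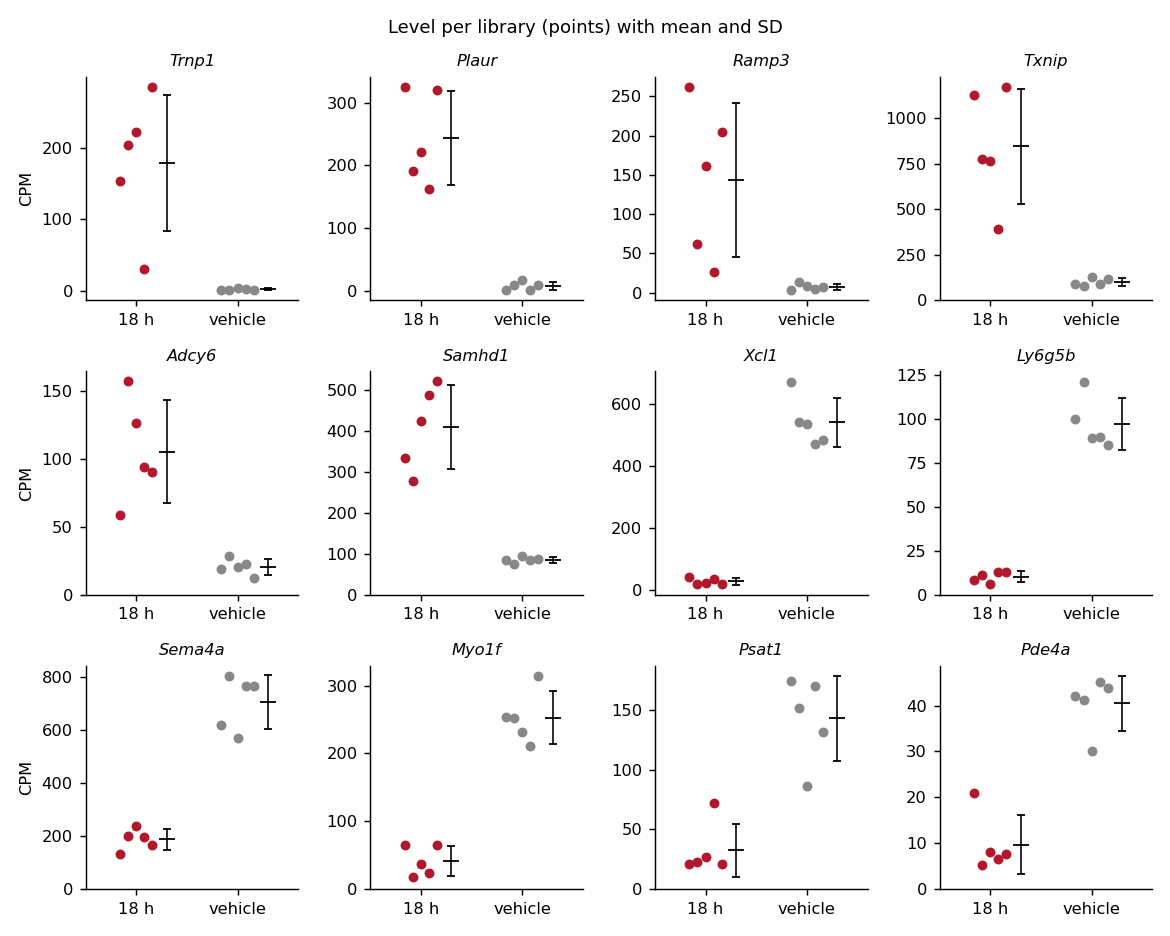
Level in CPM of 12 genes in each 18 h library (red, left) and vehicle library (grey, right), with the group mean and SD as bars and linear axes from about 0. For each gene shown the libraries of both groups lie apart, which was a condition for choosing Trnp1, Plaur, Ramp3, Xcl1 and Ly6g5b. Trnp1 and Ramp3 spread most among the 18 h libraries.

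Largest rises and falls were picked among genes without overlap between groups, so that lack of overlap is no separate result for them. Among the genes that rose most were several with textbook roles outside T cells. Trnp1 encodes a nuclear protein known from neural progenitors of the mouse cortex (chr4:133491097-133499645). Its levels were 154, 203, 222, 29.7 and 284 CPM in the 18 h replicates 1 to 5, against 0.507, 1.11, 3.56, 2.76 and 0.771 CPM in the vehicle replicates. Even its lowest 18 h library, replicate 4, lay above all vehicle libraries (6.50 ± 0.67, adjusted p = 8.5e-06). Plaur, the receptor of the protease urokinase (chr7:24460937-24475970), stood at 324, 192, 221, 162 and 319 CPM at 18 h, against 1.01, 10.0, 17.3, 2.21 and 9.25 CPM in vehicle (4.96 ± 0.51, adjusted p = 8.2e-06). Its groups were also far apart, as the plot of levels by library shows.

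A receptor subunit and a ligand of the calcitonin peptide family rose together. Ramp3, which joins the calcitonin receptor-like receptor to form a receptor for adrenomedullin (chr11:6658506-6677478), stood at 262, 61.6, 162, 25.9 and 205 CPM at 18 h, against 3.04, 13.3, 8.64, 4.42 and 7.71 CPM in vehicle (4.36 ± 0.62, adjusted p = 1.5e-04). Calca, which encodes calcitonin and its gene-related peptide, stood at 125, 25.7, 50, 11.3 and 102 CPM at 18 h, against 1.54 to 6.09 CPM in vehicle (4.02 ± 0.66, adjusted p = 3.9e-04). Replicates 1 and 5 were the highest and replicate 4 the lowest 18 h library for both genes. Acer2, a ceramidase of the Golgi that splits ceramide into sphingosine and fatty acid, had the same order at its ends, with 45.1, 10.3, 16.2, 6.13 and 37.8 CPM at 18 h, against 0 to 1.66 CPM in vehicle (4.56 ± 0.63, adjusted p = 2.3e-05). Hmox1, the enzyme that degrades heme, stood at 94.5, 34.2, 46.4, 15.6 and 66.6 CPM at 18 h, against 3.04 to 6.10 CPM in vehicle (3.60 ± 0.52, adjusted p = 8.3e-05).

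Saa3, an acute-phase protein, and Neb, nebulin, a giant actin-binding protein of skeletal muscle, had no count in any vehicle library. Saa3 stood at 4.18, 34.2, 58.9, 0.471 and 37.1 CPM at 18 h, 180 counts in all, which is at least 65.3-fold higher than the floor of 3 counts over the vehicle group (adjusted p = 0.0085). Neb stood at 12.5, 55.6, 42.7, 0.471 and 17.2 CPM at 18 h, 164 counts in all and at least 59.5-fold higher by the same floor (adjusted p = 0.0042). In replicate 4 each was a single count, and without replicates 2 and 3 these bounds were 33.3-fold for Saa3 and 22.8-fold for Neb, and neither gene passed the expression filter there. Ccl2, a chemokine that draws monocytes, had 115 counts over the 18 h libraries and 1 count over the vehicle libraries, a ratio of 125 with a counting interval of 22 to 4986 (adjusted p = 4.3e-05). With 0 or 1 vehicle count, these genes could pass the expression filter only through libraries after dexamethasone, so their adjusted p-values are not separate support. The same limit holds for other genes near 0 in vehicle, among them Trnp1, Ctla4, Acer2, Prnp, Tlr7 and Mrc1. Floors and counting intervals cover counting error only.

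The 18 h replicate 4 was the lowest of its group for Trnp1, Plaur, Ramp3, Calca, Acer2, Hmox1, Saa3, Neb and Ccl2. It also had the lowest sum of macrophage markers. Over all called genes, replicate 4 was the 18 h library most often closest to the vehicle mean. This held for 32.4% of genes called higher and 33.1% of genes called lower. Its position toward vehicle was thus not limited to these rises. Of the 13 macrophage markers tested, 4 were higher, among them Mrc1 (3.75 ± 0.72) and Ctss (1.16 ± 0.16), 1 was lower, Fcer1g (-1.56), and the complement, lysozyme and colony-stimulating factor receptor genes were not called. Without the 18 h replicates 2 and 3, 1 marker was higher. Mrc1, the mannose receptor of macrophages, stood at 6.69, 6.85, 8.83, 1.41 and 16.5 CPM at 18 h, against 0 to 1.11 CPM in vehicle. The part of macrophages in these rises was not tested.

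Surface proteins of T cells were among the leading rises too. Ctla4, an inhibitory receptor that competes for CD80 and CD86 and is abundant on regulatory T cells, stood at 74.4, 84.7, 43.4, 24 and 54.2 CPM at 18 h, against 1.10 to 2.54 CPM in vehicle (4.91 ± 0.42, adjusted p = 3.7e-08). Of 7 regulatory T cell markers tested, 4 were higher, Ctla4 and Tnfrsf4 among them, and 1, Capg, was lower, with a median of 0.46. The 9 of 10 markers that could be read summed to 767.1 to 1209 CPM at 18 h, against 1437 to 1968 CPM in vehicle, whereas the 6 tested ones other than Capg, which was set aside after its values were seen, summed to 379 to 770 CPM at 18 h, against 332 to 396 CPM in vehicle. Foxp3 is not analysed here, and the part of regulatory T cells in the rise of Ctla4 was not tested. Prnp, the prion protein, stood at 15.6 to 69.4 CPM at 18 h, against 0.507 to 3.85 CPM in vehicle (3.70 ± 0.45, adjusted p = 4.5e-06). Cxcr4, the receptor of CXCL12 that holds developing T cells in the thymic cortex, stood at 232, 116, 123, 96.2 and 134 CPM at 18 h, against 17.1 to 29.5 CPM in vehicle (2.57 ± 0.24, adjusted p = 1.4e-07).

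Falls of similar size were found for a zinc transporter, secreted factors and surface molecules. Tmem163, which carries zinc into vesicles (chr1:127490342-127678021), had 2 counts over the 18 h libraries and 161 over the vehicle libraries, where it stood at 16.2, 21.1, 17.3, 24.3 and 24.7 CPM (adjusted p = 1.7e-08). The vehicle level was 74.0 times that at 18 h, with a counting interval of 20.2 to 616. With 2 counts at 18 h, Tmem163 could not pass the expression filter through those libraries, so its adjusted p is not separate support. Xcl1, lymphotactin, a chemokine for cross-presenting dendritic cells (chr1:164931644-164935522), stood at 40.1, 17.1, 21.3, 33.0 and 19.2 CPM at 18 h, against 672, 540.1, 535, 472 and 483 CPM in vehicle (-4.36 ± 0.22, adjusted p = 1.0e-11). Ly6g5b, a small surface protein of the Ly6 family (chr17:35113944-35118558), stood at 8.36, 11.1, 5.89, 12.7 and 13.1 CPM at 18 h, against 100, 121, 89.0, 89.4 and 84.8 CPM in vehicle (-3.20 ± 0.23, adjusted p = 2.0e-09). All 3 genes come from the rule for the largest falls, which required that the groups not overlap.

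Among the remaining falls, Pdgfb, a growth factor for fibroblasts and pericytes, stood at 15.1, 10.3, 8.10, 1.41 and 3.43 CPM at 18 h, against 40.6 to 59.4 CPM in vehicle (-2.74 ± 0.34, adjusted p = 6.3e-06). Sema4a, a semaphorin that costimulates T cells (chr3:88435959-88461182), stood at 131, 201, 239, 197 and 168 CPM at 18 h, against 621, 804, 570.5, 768 and 767 CPM in vehicle (-1.91 ± 0.17, adjusted p = 2.7e-08). Sema4a did not overlap between groups, and for Pdgfb this was a condition of its choice. Gzmc, granzyme C, stood at 0.736 to 6.13 CPM at 18 h, against 30.0 to 54.3 CPM in vehicle (-3.55 ± 0.37, adjusted p = 5.5e-07). Styk1, a receptor kinase-like protein of NK cells, stood at 0.943 to 11.7 CPM at 18 h, against 19.8 to 67.1 CPM in vehicle (-3.30 ± 0.49, adjusted p = 7.5e-05). NK lectin-like receptors, counted with SLAM proteins, tune killing by NK cells and NKT cells and had 10 of 21 tested members lower and 3 higher, with a median of -0.85 (14 lower and a median of -1.81 without 18 h replicate 1). Klrb1a stood at 0 to 2.06 CPM at 18 h, against 10.8 to 13.3 CPM in vehicle (-3.71 ± 0.47, adjusted p = 5.5e-06). NK cell marker sums were lower in the same 18 h libraries, as given above, and their part in these falls was not tested.

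Close paralogs moved in opposite directions in 2 surface families. Ly6c1 stood at 37.6, 61.6, 58.1, 58.0 and 55.6 CPM at 18 h, against 1.11 to 4.06 CPM in vehicle (4.41 ± 0.34, adjusted p = 6.5e-09). Ly6c2, its near-identical neighbour and a marker of memory-type T cells, stood at 223, 172, 166, 230.5 and 246 CPM at 18 h, against 879 to 1295 CPM in vehicle (-2.46 ± 0.19, adjusted p = 7.5e-09). Ifitm1 stood at 9.20, 7.70, 5.89, 2.36 and 6.18 CPM at 18 h, against 24.4 to 48.0 CPM in vehicle (-2.75 ± 0.28, adjusted p = 2.6e-07). Ifitm2 also fell (-2.18 ± 0.40, adjusted p = 8.1e-04), whereas Ifitm3 rose, with 168, 136, 242, 79.2 and 148 CPM at 18 h, against 27.5 to 72.5 CPM in vehicle (1.52 ± 0.31, adjusted p = 0.0015). Ifitm proteins block entry of enveloped viruses and belong to the interferon-inducible genes. Reads of such paralogs can be split between them by the counting, so each of these levels is uncertain, and 18 h replicate 4 was the lowest of its group for all 3 Ifitm genes.

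Genes of the circadian clock, a loop of activators and repressors that glucocorticoids reset in many tissues, had 7 of 13 tested members higher and 2 lower, with a median of 0.70. Without the 18 h replicates 2 and 3, 5 of 14 were higher, with a median of 0.31. Per1, a repressor that the glucocorticoid receptor raises directly in several cell types, stood at 356, 164, 157, 151 and 232 CPM at 18 h, against 57.9, 84.5, 65.6, 40.3 and 51.6 CPM in vehicle (1.83 ± 0.25, adjusted p = 3.0e-05). Ciart, another repressor, stood at 39 to 78.7 CPM at 18 h, against 19.3 to 28.9 CPM in vehicle (1.48 ± 0.22, adjusted p = 4.3e-05). Both were apart from vehicle in every library. Nfil3, a repressor of clock output that is also needed for innate lymphoid cells, stood at 158, 30.8, 50.8, 30.6 and 80.3 CPM at 18 h, against 8.28 to 17.8 CPM in vehicle (2.48 ± 0.44, adjusted p = 5.3e-04).

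The lower clock genes were repressors as well. Bhlhe40, which is also a cofactor for cytokine production in T cells, stood at 81.1, 22.3, 16.9, 49.5 and 32.3 CPM at 18 h, against 119, 131, 104, 123 and 88.7 CPM in vehicle (-1.48 ± 0.29, adjusted p = 8.5e-04). Nr1d1, the nuclear receptor REV-ERB alpha, stood at 0.856 to 10.0 CPM at 18 h, against 8.64 to 21.8 CPM in vehicle, where the groups touched (-1.95 ± 0.48, adjusted p = 0.0036). Arntl, the activator BMAL1 that Nr1d1 represses, stood at 17.4 to 48.5 CPM at 18 h, against 6.67 to 22.9 CPM in vehicle (1.10 ± 0.33, adjusted p = 0.014), with overlap between groups. The hours of day at which the groups were taken are not given in the sources used here.

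KLF factors, zinc finger proteins several of which hold T cells quiescent, had 5 of 10 tested members higher and 0 lower, with a median of 0.69 (0.42 without the 18 h replicates 2 and 3). Klf9 stood at 121, 19.7, 35.3, 59.4 and 81.0 CPM at 18 h, against 5.56 to 11.6 CPM in vehicle (2.89 ± 0.40, adjusted p = 4.8e-05). Klf11 (2.25 ± 0.39, adjusted p = 1.8e-04) and Klf6 (1.24 ± 0.22, adjusted p = 2.3e-04) rose in every library over every vehicle library. Klf2, which drives exit from the thymus, stood at 263, 643, 467, 137 and 208 CPM at 18 h, against 41.1 to 160.2 CPM in vehicle (1.90 ± 0.40, adjusted p = 0.0026). Its highest values were those of the Cd8b1-high replicates 2 and 3, and without them its log2 fold change was 1.14 (adjusted p = 0.0100). S1pr1, the receptor that guides T cells out of the thymus, stood at 35.1, 72.8, 83.9, 53.3 and 43.3 CPM at 18 h, against 11.1 to 21.6 CPM in vehicle (1.66 ± 0.26, adjusted p = 5.7e-05).

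Among E and ID proteins and early T cell factors, 7 of 24 were higher and 2 lower, with a median of 0.29 (0.14 without the 18 h replicates 2 and 3). Id1, an inhibitor of E proteins, had 56 counts over the 18 h libraries and 3 over the vehicle libraries. The ratio was 20.3, with a counting interval of 6.60 to 102 (adjusted p = 5.0e-05). Id1 too could pass the expression filter only through libraries after dexamethasone, so its adjusted p is not separate support. Gfi1, a repressor that restrains cell division in blood stem cells, stood at 34.6 to 66.9 CPM at 18 h, against 10.7 to 24.4 CPM in vehicle (1.44 ± 0.24, adjusted p = 9.6e-05). Nuclear receptors and their coregulators had 7 of 26 higher and 3 lower. Nr1h3, the oxysterol receptor LXR alpha, stood at 25.1, 13.7, 27.2, 7.54 and 27.5 CPM at 18 h, against 1.66 to 5.40 CPM in vehicle (2.40 ± 0.40, adjusted p = 1.1e-04). Abca1, a cholesterol exporter and a target of that receptor, stood at 16.5 to 43.5 CPM at 18 h, against 4.06 to 12.7 CPM in vehicle (1.96 ± 0.37, adjusted p = 3.7e-04). Nr1h3 is abundant in macrophages, whose marker sums are given above, and their part was not tested.

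Many genes that hold cells out of the cycle rose. FOXO and quiescence genes had 15 of 25 tested members higher and 2 lower, with a median of 0.77, and arrestin-domain and thioredoxin-interacting genes had 4 of 6 higher. Txnip, which inhibits thioredoxin and glucose uptake (chr3:96557957-96561857), stood at 1125, 774, 765, 392 and 1170.0 CPM at 18 h, against 91.8, 80.0, 131, 89.4 and 120.3 CPM in vehicle (3.04 ± 0.25, adjusted p = 3.7e-08). The lowest 18 h library lay far above the highest vehicle library. Btg1, an antiproliferative factor that keeps T cells quiescent by promoting mRNA decay, stood at 45.3 to 105 CPM at 18 h, against 13.9 to 35.1 CPM in vehicle (1.79 ± 0.26, adjusted p = 3.3e-05). Genes of mRNA decay as a group had 7 of 28 higher and 1 lower.

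Inhibitors of cyclin-dependent kinases rose and Cdk4 fell. Cdkn1a, p21, stood at 95.3, 21.4, 55.9, 18.4 and 45.3 CPM at 18 h, against 4.06 to 8.14 CPM in vehicle (3.07 ± 0.43, adjusted p = 3.6e-05). Cdkn1b, p27, stood at 20.3 to 40.2 CPM at 18 h, against 3.08 to 15.2 CPM in vehicle (1.84 ± 0.34, adjusted p = 3.2e-04), and Cdkn2d, p19, rose too (1.18 ± 0.23, adjusted p = 7.2e-04), with 0.71 without the 18 h replicates 2 and 3. Cdk4, the kinase that opens G1, stood at 199.8, 215, 270.1, 368 and 254 CPM at 18 h, against 557, 511, 416, 557 and 578 CPM in vehicle (-1 ± 0.16, adjusted p = 6.6e-05). Over all cyclins, kinases and inhibitors, 6 of 29 were higher and 6 lower (20.7% each, near the shares over all genes). Targets of p53 had 10 of 20 higher and 2 lower, with a median of 0.60. Bbc3, the cell death protein PUMA, which glucocorticoids also raise in thymocytes, stood at 106 to 149.7 CPM at 18 h, against 29.4 to 55.9 CPM in vehicle (1.61 ± 0.20, adjusted p = 4.7e-06). The BCL2 family had 6 of 17 higher and 1 lower, with members of both effects: the killer Bmf (3.11 ± 0.43, adjusted p = 2.4e-05) and the protector Mcl1 (0.88 ± 0.16, adjusted p = 2.8e-04) both rose.

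Histones had the most falls of all the gene lists. Of 48 tested, 35 were lower and 2 higher, with a median of -1.66. The 40 genes of the histone clusters, whose transcripts are made during DNA replication, had 34 lower and 0 higher, with a median of -1.88, and the falls covered all 5 classes: 4 of 5 H1 genes (median -1.35), 8 of 10 H2A genes (-1.97), 10 of 12 H2B genes (-2.04), 6 of 6 H3 genes (-2.04) and 6 of 7 H4 genes (-1.58). Cluster genes summed to 250, 354.4, 465.1, 235.7 and 497.9 CPM in the 18 h replicates 1 to 5, against 1117.0, 1046.9, 1059.2, 1168.0 and 1259.7 CPM in the vehicle replicates. The groups did not overlap, and vehicle replicate 3 stood with its group here. Cluster histone messages mostly end in a stem-loop instead of a poly(A) tail, so libraries of polyadenylated RNA read only their polyadenylated forms. Their coding sequences are also alike, so levels of single genes are uncertain.

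**Figure D4:**
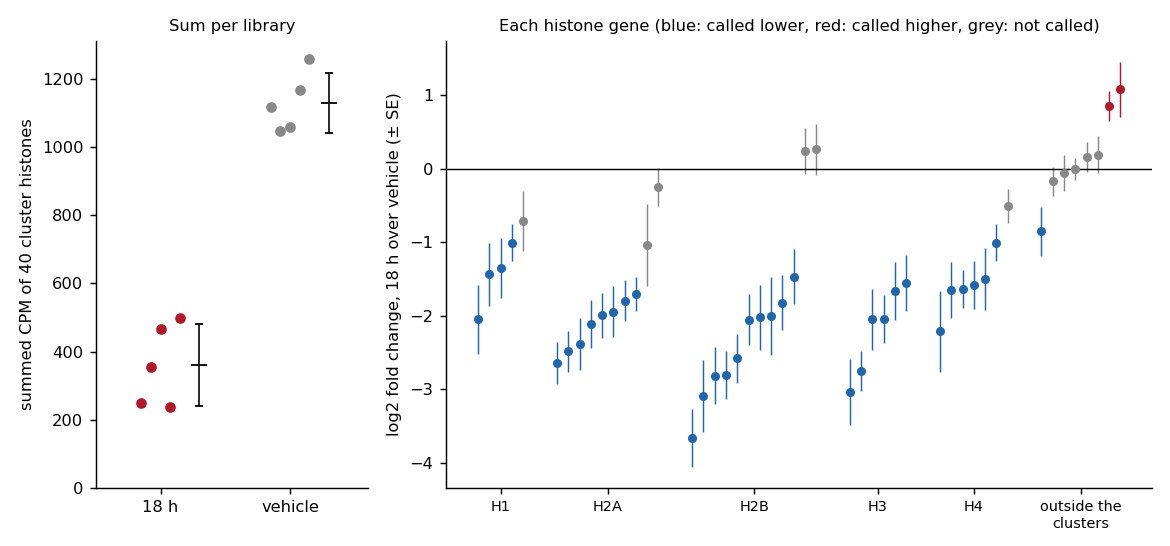
Left, summed CPM of the 40 histone cluster genes in each library (points) with the group mean and SD, 18 h in red and vehicle in grey. Right, log2 fold change and standard error of each of 48 histone genes by class: the cluster classes lie almost wholly below 0, and genes outside the clusters lie on both sides of it.

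The 8 histone genes outside the clusters, most of them replacement histones made outside DNA replication from polyadenylated messages, had 2 higher and 1 lower, as the plot of histone genes shows, and 5 did not pass the test. The lower one was H2afj, an H2A variant, close to the threshold (-0.85 ± 0.33, adjusted p = 0.0499), and its call was lost under 13 of 18 alternatives. H3f3b, which encodes the variant H3.3, stood at 197 to 264 CPM at 18 h, against 98.5 to 191 CPM in vehicle (0.85 ± 0.21, adjusted p = 0.0036), and H3f3a, for the same protein, was higher as well (1.08 ± 0.37, adjusted p = 0.038). That call for H3f3a was lost without the 18 h replicates 2 and 3 (adjusted p = 0.13) and as most single libraries were left out. Within the H2B genes, Hist1h2bm stood at 0.836, 0.856, 5.89, 0.943 and 2.75 CPM at 18 h, against 28.9, 24.4, 26.9, 29.3 and 35.5 CPM in vehicle (-3.66 ± 0.40, adjusted p = 7.0e-07). Hist1h2bk (-3.09 ± 0.49, adjusted p = 8.7e-05) and Hist1h2bj, with 5.19 to 20.6 CPM at 18 h and 77.9 to 117 CPM in vehicle (-2.80 ± 0.32, adjusted p = 3.1e-06), fell as well. Hist3h2ba, with 4.18 to 14.6 CPM at 18 h and 5.58 to 8.64 CPM in vehicle, did not pass the test (0.26 ± 0.35, adjusted p = 0.59).

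Promoters of H2B genes are textbook carriers of the octamer ATTTGCAT, which binds the factor OCT1. Sequences of the 250 bases before the annotated start, from RefSeq on GRCm38.p6, were read for 3 of the H2B genes that fell and for the uncalled Hist3h2ba. Capitals mark the octamer on either strand.
Hist1h2bm, chr13:21721794-21722043, plus strand: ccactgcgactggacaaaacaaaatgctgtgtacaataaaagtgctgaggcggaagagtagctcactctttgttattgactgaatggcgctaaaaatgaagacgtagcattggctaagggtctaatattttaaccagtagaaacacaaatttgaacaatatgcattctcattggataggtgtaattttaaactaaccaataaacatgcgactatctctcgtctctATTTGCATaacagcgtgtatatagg
Hist1h2bk, chr13:22035571-22035820, plus strand: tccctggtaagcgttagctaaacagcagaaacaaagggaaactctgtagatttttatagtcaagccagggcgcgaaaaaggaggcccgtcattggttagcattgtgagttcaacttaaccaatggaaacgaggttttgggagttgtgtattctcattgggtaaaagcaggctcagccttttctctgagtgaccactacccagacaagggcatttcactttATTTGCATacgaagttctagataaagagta
Hist1h2bj, chr13:22042948-22043197, plus strand: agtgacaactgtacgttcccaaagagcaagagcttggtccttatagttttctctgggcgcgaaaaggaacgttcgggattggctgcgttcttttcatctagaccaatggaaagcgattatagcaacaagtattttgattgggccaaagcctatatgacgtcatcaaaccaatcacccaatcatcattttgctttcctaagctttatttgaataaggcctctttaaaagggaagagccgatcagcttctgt
Hist3h2ba, chr11:58948661-58948910, plus strand: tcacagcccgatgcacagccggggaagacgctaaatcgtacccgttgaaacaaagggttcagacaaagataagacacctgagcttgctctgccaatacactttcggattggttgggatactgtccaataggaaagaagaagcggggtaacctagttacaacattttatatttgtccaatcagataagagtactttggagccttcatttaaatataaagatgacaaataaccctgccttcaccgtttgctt
In Hist1h2bm the octamer began 25 bases before the start, and in Hist1h2bk it began 30 bases before. Neither Hist1h2bj, which fell, nor Hist3h2ba held it. Searched on both strands, the octamer stood in 6 of 11 H2B genes with a promoter in the table (54.5%), in 5 of 10 H2A genes (50%) and in 0 of 5 H3 genes, 0 of 7 H4 genes and 0 of 5 H1 genes. It stood in 100 of 6488 tested genes with a promoter (1.54%). The falls thus included genes with and without these letters, and a match is a description of the sequence, not of binding.

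Genes that make the building blocks of DNA and RNA had falls and no rises. One-carbon, purine and pyrimidine synthesis had 11 of 20 tested members lower and 0 higher, with a median of -0.70, and all 11 stood below vehicle in every library. Psat1, which makes phosphoserine on the way to serine, stood at 20.9, 22.3, 26.5, 72.1 and 21.3 CPM at 18 h, against 175, 152, 86.4, 171 and 132 CPM in vehicle (-2.08 ± 0.33, adjusted p = 2.0e-04). Replicate 4 was the highest 18 h library and vehicle replicate 3 the lowest vehicle library, and they did not meet. Mthfd1, which interconverts folate one-carbon units, stood at 11.7 to 36.8 CPM at 18 h, against 60.9 to 78.7 CPM in vehicle (-1.53 ± 0.22, adjusted p = 2.4e-05). Shmt2, the mitochondrial enzyme that takes the unit from serine (-1.35 ± 0.20, adjusted p = 4.9e-05), and Paics, of purine synthesis (-1.13 ± 0.17, adjusted p = 5.3e-05), fell as well. Slc29a1, which carries nucleosides across the membrane, fell by 1.68 ± 0.21 in log2 units (adjusted p = 6.2e-06), and Srm, which makes spermidine, fell by 1.52 ± 0.27 (adjusted p = 3.3e-04).

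Central metabolism had smaller medians. Glycolysis had 5 of 18 lower, among them Tpi1 (-1.21 ± 0.20, adjusted p = 1.4e-04) and Ldha (-0.82, adjusted p = 0.0010), and 2 higher, with a median of -0.18 (-0.31 without the 18 h replicates 2 and 3 and -0.32 without vehicle replicate 5). One of the higher ones was Eno2, the enolase named for neurons, at 15.1 to 44.3 CPM at 18 h, against 0.508 to 7.18 CPM in vehicle (2.49 ± 0.47, adjusted p = 4.9e-04). The tricarboxylic acid cycle had 5 of 20 lower and 0 higher, with a median of -0.29. Aminoacyl-tRNA synthetases, which charge tRNAs, had 6 of 19 lower and 0 higher, led by Mars (-1.01 ± 0.18, adjusted p = 2.5e-04). Of the transcription factors and regulators of the integrated stress response, which raise many of those synthetases and Psat1 under stress, 5 of 8 were higher and 0 lower, with a median of 0.51, and 3 were higher without 18 h replicate 1 or without vehicle replicate 1, 4 or 5. Cebpb stood at 446, 102, 189.9, 181 and 283 CPM at 18 h, against 65.7 to 100 CPM in vehicle (1.56 ± 0.32, adjusted p = 0.0016).

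Ribosomal protein genes had 21 of 74 lower and 5 higher, with a median of -0.27. Rps2, of the small subunit, averaged 3909 ± 1480.3 CPM at 18 h and 11800.2 ± 3097 CPM in vehicle (SD, n = 5 each; -1.59 ± 0.23, adjusted p = 3.6e-05). Rps3a1, of the same subunit, stood at 1737 to 2418 CPM at 18 h, against 709 to 1636 CPM in vehicle (0.98 ± 0.19, adjusted p = 4.2e-04). The count of lower ribosomal proteins was 8 without the 18 h replicates 2 and 3, where the median was -0.25, and 12 to 27 as single libraries were left out, with 12 or 13 without 18 h replicate 2 or 3 or vehicle replicate 2. Without vehicle replicate 3, 12 were higher. With the replicate number as a block in a fit of the 10 libraries, 6 were lower and 5 higher. Many ribosomal proteins have processed pseudogenes, to which reads can be lost.

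Defences against oxidants split by enzyme. Redox and NRF2 target genes had 7 of 27 higher and 8 lower. Gstp1, a glutathione transferase, stood at 75 to 171 CPM at 18 h, against 9.38 to 30.0 CPM in vehicle (2.77 ± 0.29, adjusted p = 1.2e-06). Prdx4, a peroxiredoxin of the endoplasmic reticulum, stood at 17.7 to 39.1 CPM at 18 h, against 62.4 to 95.1 CPM in vehicle (-1.68 ± 0.22, adjusted p = 9.0e-06). Without the 18 h replicates 2 and 3, 3 members were higher, and 3 or 4 were higher without 18 h replicate 1 or 2 or without vehicle replicate 1, 2, 4 or 5. Lysosome and V-ATPase genes had 8 of 31 higher and 4 lower. Lamp2, a lysosomal membrane protein, stood at 24 to 33.0 CPM at 18 h, against 4.57 to 11.6 CPM in vehicle (1.65 ± 0.28, adjusted p = 1.5e-04). Autophagy genes had 5 of 24 higher and 0 lower, led by Atg12 (1.65 ± 0.27, adjusted p = 8.0e-05). The share higher, 20.8%, was near the 17% over all genes tested. Autophagy genes numbered 2 or 3 higher without 18 h replicate 1 or 5 or vehicle replicate 2 or 4, and 2 were lower without vehicle replicate 3.

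Genes of the cell cortex and of movement had more falls than rises. The actin cytoskeleton had 18 of 43 tested members lower and 3 higher, with a median of -0.33. Myo1f, an unconventional myosin of leukocytes, stood at 64.4, 17.1, 36.8, 23.1 and 65.2 CPM at 18 h, against 254, 252, 231, 211 and 314 CPM in vehicle (-2.62 ± 0.27, adjusted p = 1.9e-06). Capg, which caps actin filaments, stood at 439.8, 218, 352, 386 and 489.6 CPM at 18 h, against 1083 to 1600.0 CPM in vehicle (-1.87 ± 0.18, adjusted p = 1.2e-07). Zyx, zyxin of adhesion sites, stood at 246 to 511 CPM at 18 h, against 708 to 1114 CPM in vehicle (-1.43 ± 0.19, adjusted p = 6.9e-06). The groups were apart for all 3 genes, and Cfl1, cofilin (-0.97 ± 0.17, adjusted p = 2.0e-04), and Actb, actin itself (-0.72 ± 0.15, adjusted p = 7.8e-04), fell less.

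Annexins, S100 proteins and galectins, which bind calcium and membranes or sugars and in part mark activated T cells, had 11 of 16 lower and 1 higher, with a median of -0.84. Anxa2 stood at 227, 88.2, 160.4, 124 and 246 CPM at 18 h, against 821, 721, 519, 898 and 861 CPM in vehicle (-2.18 ± 0.22, adjusted p = 6.0e-07). S100a4 stood at 13.7 to 73.5 CPM at 18 h, against 171 to 325 CPM in vehicle (-2.55 ± 0.33, adjusted p = 3.2e-05). Lgals1, galectin 1, fell by 1.26 ± 0.19 in log2 units (adjusted p = 4.8e-05). Of 13 integrin genes 3 were lower and 1 higher: Itgb2, the beta chain of LFA-1, stood at 357 to 656 CPM at 18 h, against 889 to 1351 CPM in vehicle (-1.19 ± 0.17, adjusted p = 2.4e-05), and Itgae, the chain that binds epithelial cadherin, also fell (-1.15 ± 0.16, adjusted p = 2.4e-05). Rhoc, a GTPase of contraction and movement, stood at 4.28 to 15.8 CPM at 18 h, against 35.9 to 62.2 CPM in vehicle (-1.99 ± 0.28, adjusted p = 1.7e-05).

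Cytokine signalling through JAK and STAT proteins had 12 of 21 tested members higher and 0 lower, with a median of 0.79. Feedback inhibitors were among the strongest. Socs3 stood at 129.6, 116, 101, 87.2 and 103 CPM at 18 h, against 34.0, 22.2, 21.9, 19.9 and 34.7 CPM in vehicle (2.01 ± 0.18, adjusted p = 6.0e-08). Cish stood at 298 to 416 CPM at 18 h, against 87.2 to 169.6 CPM in vehicle (1.52 ± 0.16, adjusted p = 7.0e-07). Both inhibitors were close among replicates and apart from vehicle. Stat5b, which carries signals of interleukin 2 and interleukin 7, stood at 69.3 to 124 CPM at 18 h, against 27.8 to 53.9 CPM in vehicle (1.25 ± 0.19, adjusted p = 5.3e-05).

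Adcy6 and Pde4a, which make and break cyclic AMP, a messenger that dampens T cells, moved in opposite directions. Adcy6, an adenylate cyclase, stood at 58.5, 158, 127, 94.3 and 90.7 CPM at 18 h, against 19.3, 28.9, 20.3, 22.6 and 12.3 CPM in vehicle (2.36 ± 0.25, adjusted p = 7.7e-07). Pde4a, a phosphodiesterase that degrades the messenger, stood at 20.9, 5.14, 8.10, 6.60 and 7.55 CPM at 18 h, against 42.1, 41.1, 30.0, 45.3 and 43.9 CPM in vehicle (-2.09 ± 0.28, adjusted p = 8.2e-06). Over the whole list of cyclic nucleotide turnover, 3 of 19 were higher (15.8%) and 4 lower (21.1%), near the shares over all genes. Purinergic, prostaglandin, adrenergic and other G protein-coupled receptors, counted with the channel P2rx4, had 9 of 22 higher and 4 lower. Among the higher ones was Gpr65, a proton sensor coupled to cyclic AMP. It stood at 54.9 to 128 CPM at 18 h, against 16.2 to 41.6 CPM in vehicle (1.5 ± 0.30, adjusted p = 8.9e-04).

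Proximal T cell receptor signalling had 10 of 33 higher and 6 lower, with a median of -0.06, and 3 higher and 7 lower without the Cd8b1-high replicates. Of its brakes, Cblb, a ubiquitin ligase that enforces tolerance, stood at 43.5, 17.1, 11.8, 15.1 and 34.3 CPM at 18 h, against 1.52, 3.33, 10.2, 1.66 and 0.771 CPM in vehicle (2.68 ± 0.52, adjusted p = 7.8e-04). Ptpn22, a phosphatase that acts on the kinase LCK, stood at 372 to 834 CPM at 18 h, against 189 to 266 CPM in vehicle (1.48 ± 0.23, adjusted p = 9.9e-05). Ptpn6, the phosphatase SHP-1, went the other way, at 166 to 412 CPM at 18 h, against 638 to 967 CPM in vehicle (-1.47 ± 0.19, adjusted p = 6.9e-06). MAPK phosphatases and Sprouty proteins had 5 of 11 higher and 2 lower, with a median of 0.77 (0.34 without 18 h replicate 1), led by Dusp10 (1.45 ± 0.24, adjusted p = 9.3e-05). Nfatc1, a factor that the receptor activates, fell by 1.10 ± 0.16 in log2 units (adjusted p = 2.3e-05).

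Ubiquitin ligases of tolerance and TRAF proteins had 9 of 27 higher and 2 lower. Birc3, which limits death by TNF, stood at 40.5 to 112 CPM at 18 h, against 10.0 to 29.0 CPM in vehicle (1.78 ± 0.27, adjusted p = 5.3e-05), and Tnfaip3, the inhibitor A20, rose by 1.11 ± 0.18 (adjusted p = 1.0e-04). Of the TNF superfamily and its receptors, 8 of 18 were higher and 3 lower. Tnfrsf12a, the receptor of TWEAK, stood at 44.9 to 76.2 CPM at 18 h, against 11.2 to 23.3 CPM in vehicle (1.93 ± 0.22, adjusted p = 1.4e-06), and Fas, a death receptor, stood at 19.9 to 35.1 CPM at 18 h, against 2.54 to 13.2 CPM in vehicle (1.95 ± 0.33, adjusted p = 1.3e-04). Tnfsf14, the ligand LIGHT, fell by 1.38 ± 0.23 (adjusted p = 1.2e-04). Smurf2, a ligase that ends TGF-beta receptor signalling, stood at 104 to 184 CPM at 18 h, against 16 to 45.3 CPM in vehicle (2.09 ± 0.24, adjusted p = 2.6e-06). Nrarp, a feedback target of Notch, stood at 5.89 to 14.4 CPM at 18 h, against 25.4 to 50 CPM in vehicle (-1.88 ± 0.25, adjusted p = 1.1e-05).

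Families linked to defence against pathogens had rises beyond the usual interferon-stimulated genes, although most of them are interferon-inducible too. The GBP and IRG GTPases, which attack vacuoles of pathogens, had 13 of 13 higher, 6 of them among the usual interferon-stimulated genes, with a median of 1.85, and the Schlafen family had 5 of 5 higher, with a median of 1.46. Slfn5 stood at 108, 82.2, 88.3, 78.7 and 42.6 CPM at 18 h, against 5.08, 7.78, 5.08, 3.31 and 2.31 CPM in vehicle (4.10 ± 0.50, adjusted p = 2.4e-05). Igtp stood at 398 to 561 CPM at 18 h, against 175 to 199.7 CPM in vehicle (1.40 ± 0.14, adjusted p = 1.6e-07). Both families consist of close paralogs, so levels of single members are uncertain. Class I antigen processing had 11 of 18 higher and 0 lower, with a median of 0.51. H2-T23, the class I molecule Qa-1 that NKG2 receptors see, stood at 1502, 747, 1458, 1578 and 1134 CPM at 18 h, against 423, 354, 651, 362 and 459 CPM in vehicle (1.51 ± 0.20, adjusted p = 8.2e-06). Nlrc5, the activator of class I genes, was higher by 0.89 ± 0.17 (adjusted p = 5.1e-04).

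Nucleic acid sensing and its adaptors had 14 of 25 higher and 1 lower, with a median of 0.60. Samhd1, which destroys deoxynucleotides and restricts retroviruses, stood at 335, 277, 424, 488 and 524 CPM at 18 h, against 85.3, 75.6, 94.1, 84.5 and 86.3 CPM in vehicle (2.26 ± 0.20, adjusted p = 3.2e-08). Its vehicle libraries lay close together. Tlr7, a receptor of single-stranded RNA, stood at 13.7 to 22.6 CPM at 18 h, against 1.01 to 2.76 CPM in vehicle (3.34 ± 0.53, adjusted p = 7.2e-05). TRIM proteins had 11 of 22 higher and 2 lower, with a median of 0.59, led by Trim25, at 119 to 144 CPM at 18 h, against 17 to 37.1 CPM in vehicle (2.22 ± 0.19, adjusted p = 1.7e-08). PARP proteins, which attach ADP-ribose and share 3 members with the usual interferon-stimulated genes, had 7 of 13 higher and 0 lower, with a median of 0.67, led by Parp14, at 207 to 298 CPM at 18 h, against 51.3 to 82.9 CPM in vehicle (2.01 ± 0.18, adjusted p = 3.4e-08).

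The core of the interferon-stimulated response element, which is GAAA, any 2 bases and GAAA again, stood on either strand of the 250-base promoters of 6.97% of genes called higher and 2.43% of genes called lower, against 3.48% of tested genes with a promoter. The letters AGAACA, an arm of the palindromic glucocorticoid response element, stood in 12.3% of genes called higher and 12% of genes called lower, against 12.6% of all tested genes with a promoter. The clock's E-box CACGTG stood in 11.2% of genes called higher and 9.7% of genes called lower, against 10.3% of all tested. These shares include the usual targets, and they describe letters in this window only.

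Chromatin modifiers had 25 of 95 tested members higher and 8 lower, with a median of 0.24. Kdm7a, a histone demethylase, stood at 24.5 to 41.1 CPM at 18 h, against 3.33 to 19.8 CPM in vehicle (1.98 ± 0.32, adjusted p = 1.0e-04). Zinc finger genes named Zfp, many of which repress transcription, had 25 of 119 higher and 2 lower. Their share higher, 21%, was near the 17% over all genes tested. Zfp1 led, at 66.5 to 118 CPM at 18 h, against 25.6 to 41.1 CPM in vehicle (1.56 ± 0.20, adjusted p = 8.2e-06). Without the 18 h replicates 2 and 3, 14 chromatin modifiers and 15 Zfp genes were higher, with medians of 0.20 and 0.18, against 0.24 and 0.21 with all libraries. As single libraries were left out, 17 to 27 chromatin modifiers and 11 to 30 Zfp genes were higher, with 11, 16 and 15 Zfp genes without vehicle replicates 1, 4 and 5. Lower chromatin modifiers numbered 2 to 5 without 18 h replicate 1, 4 or 5 or vehicle replicate 1, 4 or 5. Splicing factors had 17 of 76 higher (22.4%) and 13 lower (17.1%), against 17% and 17.3% over all genes.

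**Figure D5:**
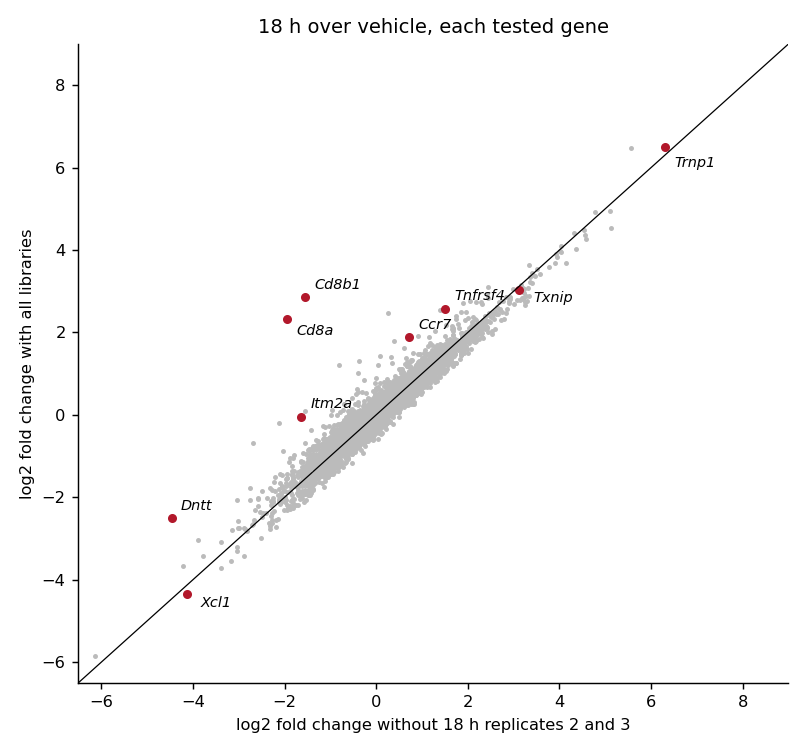
Log2 fold change of 18 h over vehicle for each gene tested both ways, with all libraries (vertical) against the same without the 18 h replicates 2 and 3 (horizontal), and the line of equal values. Cd8a and Cd8b1 lie in the upper left with opposite signs, whereas Trnp1, Txnip and Xcl1 lie near the line.

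Without the 18 h replicates 2 and 3, 2185 genes were called, 1085 higher and 1100 lower. Of the 7916 genes tested both ways, 1976 were called in the same direction in both fits and 0 in opposite directions, and 727 calls were lost while 187 were gained. Genes of conventional T cells were among those farthest from the line of equal values in the plot of both sets of fold changes. With all libraries Cd8b1 (2.86 ± 1.15, adjusted p = 0.076) and Cd8a (2.33 ± 1.06, adjusted p = 0.11) did not pass the test. Without those replicates the log2 fold change was -1.56 for Cd8b1 and -1.94 for Cd8a. The replicates were left out for their high Cd8b1, so the choice itself lowered these values. A test of these genes there is not separate support. Ccr7, a receptor that guides T cells to lymph nodes, kept its call with a smaller difference (1.88 ± 0.48, adjusted p = 0.0089 with all libraries and 0.72, adjusted p = 0.049 without). Tnfrsf4, the costimulator OX40, stood at 25.9, 168, 218, 58.9 and 65.2 CPM at 18 h, against 16.8 to 20 CPM in vehicle, and rose with them (2.58 ± 0.47, adjusted p = 9.0e-04) and without (1.51, adjusted p = 2.7e-04).

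Some thymocyte genes had lower log2 fold changes once the replicates were left out. Dntt, the DNA polymerase that adds bases to receptor genes, stood at 0, 12.8, 7.36, 0.943 and 2.06 CPM at 18 h, against 12.2 to 37.5 CPM in vehicle (-2.51 ± 0.57, adjusted p = 0.0026), and its log2 fold change without them was -4.46. Itm2a, a membrane protein of thymocytes after positive selection, stood at 29.3, 163, 84.6, 22.6 and 7.55 CPM at 18 h, against 43.1 to 117 CPM in vehicle (-0.04 ± 0.59, adjusted p = 0.97), and was lower without them (-1.64, adjusted p = 0.0051). The median log2 fold change of CD4+CD8+ thymocyte markers was 0.62 with all libraries and -0.80 without those replicates. For the markers of single-positive T cells it was 1.08 with all libraries and 0.02 without them. Both lists hold Cd8a and Cd8b1, and Cd8b1 singled out the replicates, so these shifts are not separate from that choice. Cd4 stood at 119 to 374 CPM at 18 h, against 163 to 332 CPM in vehicle, and was not called (-0.22 ± 0.27, adjusted p = 0.56).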

How the data were processed

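Polyadenylated RNA of sorted thymic NKT cells was read by bulk MARS-seq, per the labels' protocols. The deposited values used were raw counts per gene, not normalised by the authors. The submitters' processing notes name the build mm10 and, without roles, HTSeq, STAR 2.5.2b, DESeq2, cutadapt and bcl2fastq. Steps for molecular identifiers and strand are not given in the sources used here. Of 10320 names, 17 had been turned into calendar dates and were left out (0.102% to 0.147% of a library's counts). No replicates of a group agreed within counting noise (3.69 to 16.5 chi-square units per degree of freedom), and each was kept as its own replicate.

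Counts were tested in edgeR 4.0.16 under R 4.3.3, with its default expression filter by group, TMM scaling and a robust quasi-likelihood fit of all 14 libraries without covariates. The contrast was 18 h minus vehicle, two-sided, with Benjamini-Hochberg adjustment over 7965 genes. Levels are CPM after TMM scaling, and a standard error is the log2 fold change divided by the root of its F statistic. The fit was tested on simulated data. Coordinates and promoters are RefSeq's on GRCm38.p6, and 7584 tested genes (95.2%) matched by symbol.

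Groups, lists, members and the rule for named genes were chosen with earlier results of these data known. The rule names, of the called genes without overlap and with at least 20 CPM, the 15 that rose most and the 15 that fell most, leaving out usual targets, gene models and pseudogenes; up to 4 called members of each of 94 lists by smallest adjusted p; and Cd8b1, Cd8a, Cd4, Rag1, Zbtb16, Cd3e, Nr3c1 and Arntl. The text names a selection, and a few results are not reported here. Hist3h2ba, H2afj, H3f3a, H3f3b, Ifitm3, Ccr7, Itm2a, Fas, Tlr7, Cfl1, Actb and Fcer1g were named after their values were seen. Alternatives were other scalings, filters and fits, DESeq2 1.42.0, limma 3.58.1 with voom and sample weights, the replicate number as a block, and leaving out libraries.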

Additional observations from a re-analysis of the deposited data

Results flagged for a closer look

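Of 270 groups of 5 libraries behind the genes named in the text, 21 (7.78%) held a library far from the other 4 by Dixon's test at the 95% level, where chance flags about 1 in 20 groups. The library was vehicle replicate 3 in 11 of these 21 and 18 h replicate 1 in 6.

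In vehicle replicate 3, several genes stood toward their 18 h level. Atg12 stood at 21.4 CPM there, against 5.56 to 9.25 CPM in the other vehicle libraries. Btg1 stood at 35.1 CPM (others 13.9 to 17.8), Cblb at 10.2 CPM (0.771 to 3.33), H3f3a at 446 CPM (141 to 194), Hmox1 at 6.10 CPM (3.04 to 3.86) and Kdm7a at 19.8 CPM (3.33 to 7.61). These genes were all higher at 18 h. Among genes lower at 18 h, Mars stood at 62.5 CPM (99.5 to 108), Pde4a at 30.0 CPM (41.1 to 45.3) and Srm at 155 CPM (240.0 to 262). Cd4 stood at 163 CPM (283 to 332) and Itm2a at 117 CPM (43.1 to 50.8), and neither was called.

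In 18 h replicate 1, Cxcr4 stood at 232 CPM, against 96.2 to 134 CPM in the other 18 h libraries. Prnp stood at 69.4 CPM (others 15.6 to 30.2), Styk1 at 11.7 CPM (0.943 to 2.75), Pde4a at 20.9 CPM (5.14 to 8.10), Ldha at 354 CPM (587 to 643) and Ly6c1 at 37.6 CPM (55.6 to 61.6). In 18 h replicate 4, Psat1 stood at 72.1 CPM (20.9 to 26.5) and H2-DMa at 533 CPM (139.6 to 221). In vehicle replicate 2, Ciart stood at 28.9 CPM (19.3 to 20.3), and in vehicle replicate 1, Ccl2 stood at 0.507 CPM, a single count, with the others at 0.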

How the results depend on the processing

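The 19 alternatives called 2056 to 3372 genes, against 2734. No gene called with all libraries turned its sign under any of them, and of the 123 called genes named here 120 were called under every one in which they were tested. Calls were lost for H2afj, H3f3a and Ccr7. Acer2, Ccl2, Id1, Mrc1 and Neb were tested in only 11 of the 19 alternatives, and Saa3 in 12. DESeq2's Wald test called 2785 genes, a filter at a mean of 20 CPM called 2056 of 5235 tested, and voom with sample weights called 3372. Leaving out single libraries gave 2160 to 3154 calls, the highest without vehicle replicate 3. Genes whose libraries did not overlap numbered 794 to 1237 higher and 863 to 1286 lower as single libraries were left out, against 753 and 822, and again the most came without vehicle replicate 3; fewer libraries overlap less by construction. Replicate numbers did not pair the samples (correlations of same-numbered deviations -0.21 to 0.01), and with the replicate block 2070 genes were called, 1068 higher and 1002 lower, 2031 of them shared.

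Signs turned for genes that were not called. Without the 18 h replicates 2 and 3, Cd8a was at -1.94, Cd8b1 at -1.56 and Hist3h2ba at -0.26 (adjusted p = 0.65). For Cd8a and Cd8b1 this followed in part from the choice of those replicates by their high Cd8b1. Itm2a was at 0.0057 by DESeq2 and at -0.79 to 0.35 as single libraries were left out. The cause was not tested. Depth limits genes of a few CPM, where 1 count is up to 1.11 CPM.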

Other observations

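Further gene groups had called members without a place in the sections above. Class II antigen presentation, the route by which peptides are shown to CD4+ T cells, had 3 of 7 tested genes higher and 0 lower, and all 3 belong to the peptide-editing machinery. H2-DMa, which loads peptide, stood at 139.6, 217, 221, 533 and 191 CPM at 18 h, against 82.5 to 94.4 CPM in vehicle (1.58 ± 0.28, adjusted p = 3.7e-04 by edgeR), and H2-Oa, a brake on that step, stood at 67.7 to 147 CPM at 18 h, against 34.1 to 58.6 CPM in vehicle (1.35 ± 0.21, adjusted p = 6.5e-05). Of 7 dendritic cell markers tested, Bst2, also a usual interferon-stimulated gene, was the only one called, and the part of dendritic cells was not tested. Chemokine receptors had 3 of 8 higher and 4 lower (2 without the 18 h replicates 2 and 3). Endoplasmic reticulum folding genes had 4 of 20 higher (20%, near the 17% over all genes) and 1 lower. Among the higher ones was Edem1, which directs misfolded glycoproteins to degradation. It stood at 71.2 to 124 CPM at 18 h, against 43.6 to 53.4 CPM in vehicle (0.97 ± 0.17, adjusted p = 1.8e-04). Proteasome genes had 2 of 36 higher (5 without vehicle replicate 3) and 7 lower (19.4%, near the 17.3% over all genes). Mitochondrial ribosomal proteins had 4 of 62 higher and 15 lower. Solute carriers had 16 of 118 higher and 20 lower, shares near those over all genes, with 10 higher without vehicle replicate 4 and 12 lower without vehicle replicate 1 or without the 18 h replicates 2 and 3. Slc7a1, which imports arginine and lysine, stood at 12.4 to 18.9 CPM at 18 h, against 23.1 to 42.1 CPM in vehicle (-1.09 ± 0.21, adjusted p = 4.5e-04).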
